A study of Homo sapiens with 8 samples.

Results

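NR4A1, NR4A2 and NR4A3 form the NR4A family of orphan nuclear receptors, and their signal was followed in DU145, a human prostate cancer cell line, across the 4 groups FGF19 + TNFα, FGF19, TNFα and Mock. The members were the probesets, sets of array probes summarised into 1 value, that the platform annotation assigns to one of the 3 gene symbols, and each gene had 1 such probeset, 3 of 33297 in all (7955589 for NR4A1, 8055952 for NR4A2 and 8156848 for NR4A3). Each group had 2 Affymetrix Human Gene ST arrays, which the sample labels call biological replicates, and all cells had been moved to serum-free medium on the day before treatment. By the labels, FGF19 cells received the growth factor at 50 ng/ml together with heparin at 100 µg/ml for 100 min, TNFα cells received TNFα at 50 ng/ml for 90 min, and FGF19 + TNFα cells received FGF19 and heparin shortly before the same TNFα treatment. Mock cells were untreated, and the groups address whether FGF19 alters the early response to TNFα. The study's methods state lower doses of heparin and TNFα. No group is labelled as given heparin without FGF19, so that FGF19 and heparin cannot be told apart, and FGF19 stands here for both. DU145 is a single line in culture, and in such bulk RNA fewer cells and less RNA per cell cannot be told apart.

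NR4A receptors are transcription factors with a nuclear receptor fold, but their ligand pocket is filled by bulky side chains, and they are regarded as active without a ligand. Their amount is set mainly by transcription: they are immediate-early genes, switched on within minutes to hours by growth factors, cytokines, calcium and cyclic AMP, through CREB, MEF2, SRF and NFκB among others. NR4A1 (Nur77), NR4A2 (Nurr1) and NR4A3 (NOR1) bind the same response element as monomers or homodimers, NR4A1 and NR4A2 also pair with RXR, and the family has been linked both to survival and to apoptosis of cancer cells.

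The reference sequence upstream of the genes was taken from RefSeq (GRCh38.p14), which gave annotated windows for 2 of the 3 members, 2 for NR4A1 and 1 for NR4A3. The 250 bases before each annotated start are shown, and the window of NR4A3 holds repeats of the core of the cyclic AMP response element (CRE), to which CREB binds. Whether these sequences bear on the response to FGF19 was not tested, and NR4A2 had no window to compare. The windows lie at chr9:99821635-99821884 for NR4A3 and at chr12:52022582-52022831 and chr12:52037465-52037714 for the first and second window of NR4A1, all on the plus strand. Capitals mark the CRE core TGACG on either strand.
NR4A3: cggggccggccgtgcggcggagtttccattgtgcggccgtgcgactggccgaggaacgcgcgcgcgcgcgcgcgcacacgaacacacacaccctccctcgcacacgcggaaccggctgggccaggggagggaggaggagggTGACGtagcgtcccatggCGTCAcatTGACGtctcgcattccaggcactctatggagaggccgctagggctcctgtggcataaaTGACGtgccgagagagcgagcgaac
NR4A1, first window: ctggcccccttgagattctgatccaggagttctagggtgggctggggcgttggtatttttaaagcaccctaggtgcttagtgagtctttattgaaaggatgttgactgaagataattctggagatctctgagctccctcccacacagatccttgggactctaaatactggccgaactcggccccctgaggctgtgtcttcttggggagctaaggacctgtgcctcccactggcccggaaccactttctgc
NR4A1, second window: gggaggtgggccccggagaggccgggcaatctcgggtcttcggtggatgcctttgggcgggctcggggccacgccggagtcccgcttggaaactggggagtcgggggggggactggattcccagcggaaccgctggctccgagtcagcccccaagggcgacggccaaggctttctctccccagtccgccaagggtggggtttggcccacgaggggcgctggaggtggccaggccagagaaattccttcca
The NR4A3 window held 4 CRE cores, at 109, 91, 83 and 25 bases before the annotated start, the second of them on the other strand. Of the 35114 windows of this length in the table, 21.2% held 1 or more cores and 83, or 0.236%, held 4 or more. Neither NR4A1 window held one. The full CRE (TGACGTCA, in 1.65% of windows), the AP-1 site (TGANTCA, 6.57%), the NR4A response element NBRE (AAAGGTCA, 1.05%), the NFκB consensus (5.21%) and the CArG box of SRF (1.16%) were searched on both strands and had no match in the windows of either gene. The full CRE contains the core, so these searches overlap. A match is a run of letters and not a binding event, and the annotated starts need not be those used in DU145 cells.

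The labelled material was checked against markers. Signal is given in linear units of the PLIER summary; the array medians lay between 99.5 and 106.6, and log2 signal correlated at r = 0.967 to 0.98 within groups and 0.933 to 0.981 between groups. Of the 5 epithelial markers KRT8, KRT18, KRT19, EPCAM and CDH1, the lowest signal on any array was 532. The prostate luminal markers KLK2 and KLK3 stayed at 37.4 to 79.4, below the array medians. Among markers of leukocytes, PTPRC lay at 13.7 to 29.7, below the 20th percentile of every array, CD3E at 34.7 to 62.9 and CD14 at 73 to 96.4. Among those of fibroblasts and endothelium, DCN lay at 14.2 to 23.5, also below that percentile, PDGFRB at 47.1 to 58.7, PECAM1 at 54.5 to 75.8, COL3A1 at 57.8 to 101, COL1A1 at 102 to 125 and CDH5 at 315 to 412. Some markers moved with the groups. KRT19 read 610 and 625 on FGF19 + TNFα arrays, 532 and 737 on FGF19 arrays, 1330 and 1353 on TNFα arrays, and 1555 and 1478 on Mock arrays, and KRT8 was likewise lower on the arrays given FGF19. CDH1 ran the other way, at 693 and 778 in FGF19 + TNFα, 656 and 675 in FGF19, 583 and 579 in TNFα, and 581 and 551 in Mock. CD3E was higher on all arrays given FGF19 than on all others, COL3A1 and CDH1 passed as higher in FGF19 + TNFα than in TNFα (limma adjusted p = 0.0198 and 0.0355), and PTPRC passed as higher in FGF19 + TNFα than in Mock (adjusted p = 0.0464). Their part in the NR4A differences was not tested. All NR4A values were above the 20th percentile of their array, the level used here for a dim probeset. Groups were compared with limma on log2 signal, fitted to all probesets and all 8 arrays, with p-values adjusted over the 33297 probesets by the method of Benjamini and Hochberg, and a probeset passed at an adjusted p under 0.05. The family was chosen by its signal across the 4 groups on these same arrays. The levels of the members are therefore given as a description, with standard errors and 95% intervals from the fit but no p-values.

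NR4A1 was high on the arrays given TNFα alone, intermediate with FGF19 + TNFα, and low without TNFα. The FGF19 + TNFα arrays read 200 and 217, the FGF19 arrays 87.9 and 95, the TNFα arrays 363 and 336, and the Mock arrays 82.8 and 70. No groups overlapped, although FGF19 replicate 1 lay close to Mock replicate 1. RefSeq places an antisense gene within the NR4A1 locus, and whether the signal keeps strands apart is unstated. TNFα raised NR4A1 4.59-fold over Mock (log2 difference 2.20, standard error 0.12, n = 2 arrays per group). When FGF19 was also given, NR4A1 stood 1.68-fold below its level with TNFα (log2 difference −0.75, standard error 0.12, interval −1.03 to −0.46) and still 2.28-fold higher than with FGF19 alone (1.19, standard error 0.12). FGF19 alone left NR4A1 close to Mock, with a log2 difference of 0.26 (standard error 0.12) and an interval of −0.02 to 0.55 that includes 0. The order of its levels was thus TNFα, FGF19 + TNFα, FGF19 and Mock, and FGF19 and Mock were the neighbours that did not differ beyond their spread. The study's own analysis of these arrays lists the same NR4A1 probeset with smaller fold changes over Mock for every treatment. The probesets of NR4A2 and NR4A3 are not among those it lists as past its thresholds. That analysis covered fewer probesets, with a stricter corrected p and a cut on fold change. Absence from its list is therefore not a finding of no change. The reason for these differences was not tested.

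NR4A2 was raised by either agent and stood highest when both were given. Both FGF19 + TNFα arrays were the brightest at 280 and 294, followed by 220 and 206 with FGF19 alone, 230 and 178 with TNFα alone, and 71.3 and 76 in Mock. The TNFα arrays were the widest pair of the family, and the FGF19 arrays fell between them. NR4A2 was 3.9-fold higher with FGF19 + TNFα than in Mock (log2 difference 1.96, standard error 0.14), 2.89-fold higher with FGF19 (1.53) and 2.74-fold higher with TNFα (1.46, each with the same standard error). TNFα and FGF19 given singly could not be put in order (log2 difference TNFα minus FGF19 −0.08, interval −0.40 to 0.25). FGF19 + TNFα exceeded TNFα by 1.42-fold (log2 difference 0.51, interval 0.18 to 0.84) and FGF19 by 1.35-fold (0.43, interval 0.10 to 0.76).

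NR4A3, like NR4A2, was raised by either agent, was highest with both and lowest in Mock. It read 370 and 398 on the FGF19 + TNFα arrays, 254 and 255 on the FGF19 arrays, 260 and 269 on the TNFα arrays, and 63.5 and 69.4 on the Mock arrays. All treated arrays were far brighter than either Mock array, and both arrays given the combination were brighter than every other array. NR4A3 was 5.78-fold higher with FGF19 + TNFα than in Mock (log2 difference 2.53, standard error 0.09), 3.84-fold higher with FGF19 and 3.99-fold higher with TNFα. The single treatments again did not differ beyond their error (log2 difference TNFα minus FGF19 0.06, interval −0.16 to 0.27). The combination exceeded TNFα by 1.45-fold (log2 difference 0.54, interval 0.32 to 0.75) and FGF19 by 1.51-fold (0.59, interval 0.37 to 0.81).

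**Figure D1:**
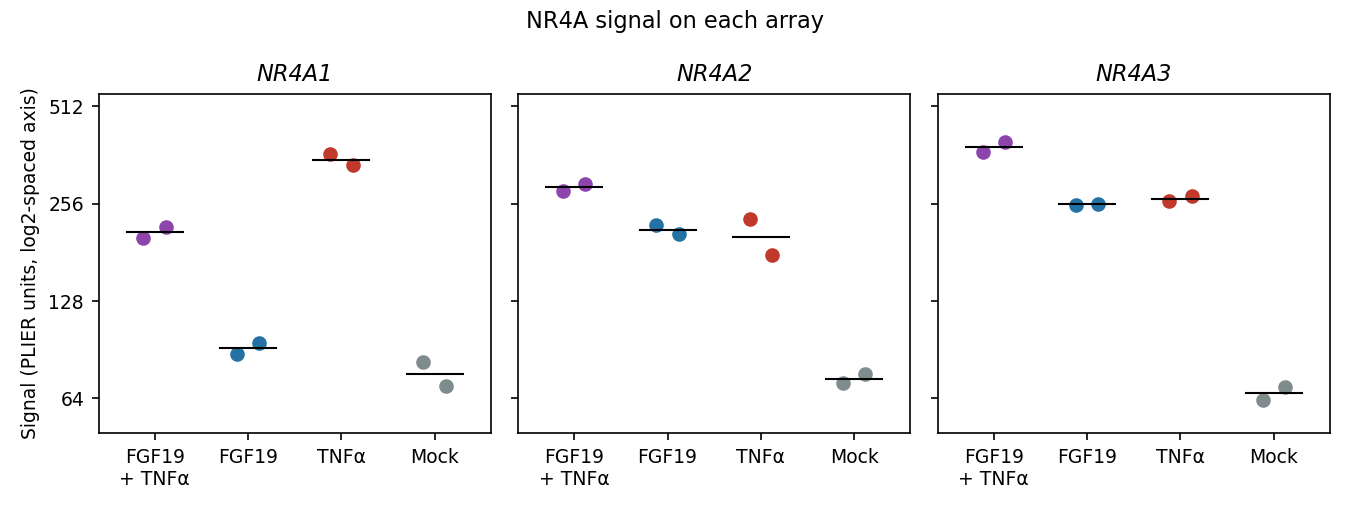
Signal of NR4A1, NR4A2 and NR4A3 on each of the 8 arrays (vertical axis, PLIER units on a log2-spaced axis) in FGF19 + TNFα, FGF19, TNFα and Mock; each point is 1 array and each bar the mean of log2 signal. NR4A1 stands apart from the other members in being highest with TNFα alone (363 and 336) and near Mock with FGF19 alone (87.9 and 95).

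The number of members that passed is set beside the share of all probesets that did, and nothing about the family is read from it, since these comparisons chose it. All 3 members were higher with TNFα than in Mock, where 0.967% of probesets were higher. NR4A2 and NR4A3 were higher with FGF19 than in Mock, where 18.2% of probesets were higher, and all 3 were higher with FGF19 + TNFα than in Mock, where 19.3% were. In FGF19 + TNFα against TNFα, NR4A2 and NR4A3 passed as higher (19.4% of probesets) and NR4A1 as lower (12.9%). Against FGF19, the combination passed for neither NR4A2 nor NR4A3, although their single-probeset intervals lay above 0. In FGF19 + TNFα against FGF19, NR4A1 passed as higher (0.279% of probesets), and its call was lost when any 1 of the 8 arrays was left out. The call of NR4A2 with TNFα was lost without either Mock array, and its call between FGF19 + TNFα and TNFα without either Mock array, either FGF19 + TNFα array or TNFα replicate 2; in the last case the log2 difference was 0.32. Both of these NR4A2 calls were also lost without variance moderation and when only the groups compared were fitted. NR4A3 did not pass between FGF19 + TNFα and TNFα without FGF19 + TNFα replicate 2 (0.48). Groups that do not overlap were common with 2 arrays each: without overlap, 41.5% of probesets were higher with FGF19 + TNFα, 39.1% with FGF19 and 20.6% with TNFα, each against Mock, 14.8% were higher with FGF19 + TNFα than with FGF19, and against TNFα the combination was higher for 42.4% and lower for 27.6%. By size, the rise of NR4A3 with FGF19 ranked 137 among the 33297 probesets and that of NR4A1 10863, while with TNFα the 3 rises ranked 78 (NR4A1), 91 (NR4A3) and 175 (NR4A2).

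**Figure D2:**
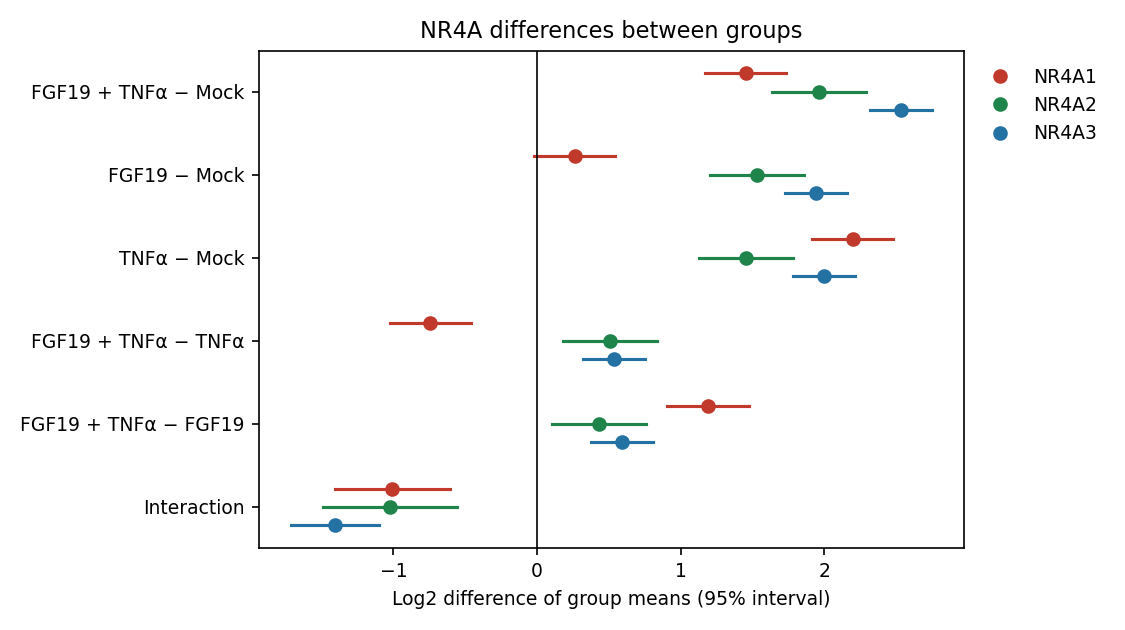
Log2 difference of group means (horizontal axis) of NR4A1, NR4A2 and NR4A3 for 5 comparisons and their interaction, with 95% intervals from limma as bars (n = 2 arrays per group). Between FGF19 + TNFα and TNFα, NR4A1 lies left of 0 (−0.75) and NR4A2 (0.51) and NR4A3 (0.54) right of it, and all 3 interactions lie left of 0.

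Whether the effects of FGF19 and TNFα add up depends on the scale, and both were examined. On the log2 scale, additive effects mean that the fold changes multiply. NR4A3 would then have been 15.3-fold over Mock with both agents, against the 5.78-fold observed, and the interaction, the log2 effect of FGF19 with TNFα minus that without, was −1.40 (standard error 0.13, interval −1.71 to −1.10). For NR4A2 the multiplied fold was 7.93 against 3.9 observed (interaction −1.02, standard error 0.19, interval −1.49 to −0.56). For NR4A1 it was 5.51 against 2.74 observed (interaction −1.01, standard error 0.16, interval −1.41 to −0.61). The combination therefore lay below the product of the fold changes for all members, by 2.65-fold for NR4A3, 2.03-fold for NR4A2 and 2.01-fold for NR4A1. These intervals are for single probesets, and no interaction survived adjustment over all of them: limma called 0 of 33297, with 1715 (5.15%) at an unadjusted p under 0.05. With a trended and robust variance prior 4 probesets were called, NR4A3 among them, and without moderation of the variances 0.

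On the linear scale, additive effects mean that the increments over Mock sum. The increments of NR4A3 were 188 signal units with FGF19 and 198 with TNFα, and the combination gained 318 of the summed 387, or 82.1%. Those of NR4A2 were 139 with FGF19 and 130 with TNFα, and the combination gained 213 of 269, or 79.3%. Observed minus summed signal was −69 units for NR4A3 (standard error 15) and −55.8 units for NR4A2 (standard error 27.8). For NR4A1, TNFα alone added 273 units and FGF19 alone 15.1, whereas the combination added 132, less than TNFα by itself, and its observed minus summed signal was −156 units (standard error 17.8). The means of all 3 members lay below the sum, and NR4A1 reached 45.9% of its summed increment. No interval was computed on this scale. With 2 arrays per group, the −55.8 units of NR4A2 beside a standard error of 27.8 do not establish a shortfall.

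**Figure D3:**
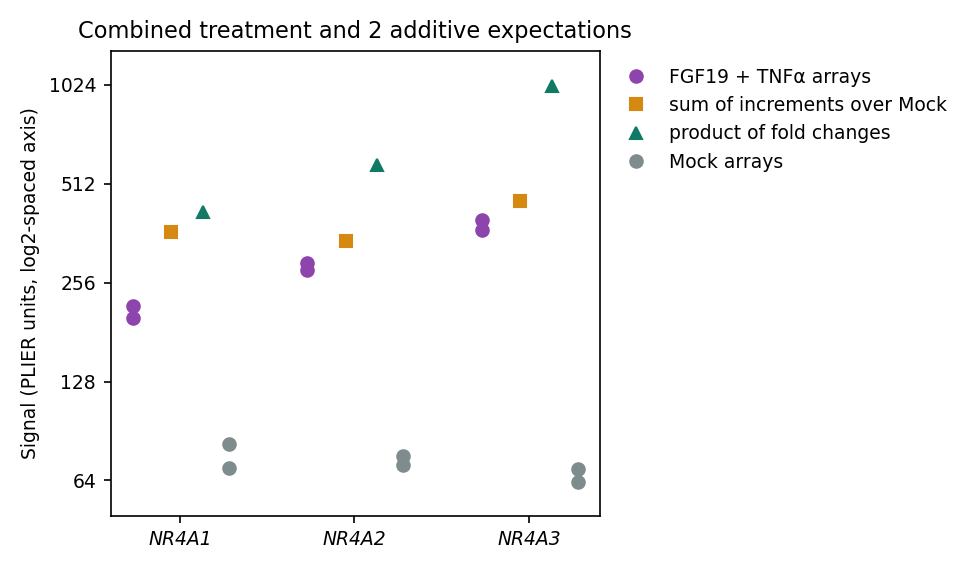
Signal (vertical axis, PLIER units on a log2-spaced axis) of the FGF19 + TNFα arrays and the Mock arrays for each NR4A gene, with the signal that would have been reached if increments over Mock summed (squares) or fold changes multiplied (triangles). The combined arrays lie below both expectations for all 3 genes, and for NR4A1 (200 and 217) they also lie below the 363 and 336 seen with TNFα alone. The expectations are drawn without their error, and for NR4A2 observed minus summed signal was −55.8 units with a standard error of 27.8.

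Across the 8 arrays NR4A2 and NR4A3 had nearly the same profile (Pearson r = 0.988 in log2 signal), whereas NR4A1 correlated with NR4A2 at r = 0.604 and with NR4A3 at r = 0.65. These correlations are descriptions over 8 arrays in 4 groups, and points of a group share their treatment. The members were compared with 1655 other probesets with 1 symbol, a mean at or above the 20th percentile and group means spanning at least 1 log2 unit. Of these, 92 had an r of at least 0.9 with NR4A2, 92 with NR4A3 and 89 with NR4A1. Among the 1655, NR4A3 was the fourth most like NR4A2 and NR4A2 the second most like NR4A3. The others most like NR4A2 were STC1, which encodes the hormone stanniocalcin (r = 0.991), the natural killer receptor gene KLRC1 (0.99), SSH1, a phosphatase that acts on cofilin (0.989), and LACC1, an immunometabolic enzyme (0.985). LACC1 (0.994), STC1 (0.987), KLRC4-KLRK1 (0.986) and SSH1 (0.983) were also those most like NR4A3. LACC1 had log2 differences from Mock of 1.53 with FGF19 + TNFα, 1.11 with FGF19 and 1.10 with TNFα. The probesets most like NR4A1 were ATF3, a stress-induced transcription factor gene (r = 0.987), the chemokine gene CXCL10 (0.985), the Notch ligand gene JAG1 (0.985), AMPD3, which encodes AMP deaminase (0.984), and TNFRSF9, a receptor of the TNF family (0.983). ATF3 had log2 differences from Mock of 0.73 with FGF19 + TNFα, 0.06 with FGF19 and 1.24 with TNFα. No gene appeared among the 5 nearest of both NR4A1 and either of the other members.

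The regulators of NR4A transcription were compared as a list of 25 kinases and factors, of which 23 had a probeset with 1 symbol. With FGF19, 12 of the 23 were higher than in Mock and 3 lower, together 65.2%, beside 32.2% of all probesets. The median log2 difference of the 23 was 0.33, beside 0.08 over all probesets. Here and for the lists below, these shares are not like for like. List genes were taken at their brightest probeset, whereas all probesets include dim ones and 12083 with no symbol. CREBBP and EP300, the coactivators of CREB, were 2.02-fold and 2.08-fold higher (limma adjusted p = 0.00319 and 0.0034, n = 2 arrays per group), and MEF2A, one of the MEF2 factors that bind DNA and recruit such coactivators, was 2.02-fold higher (adjusted p = 0.00275). The kinase genes RPS6KA4 (MSK2), RPS6KA1 (RSK1) and MAPK3 (ERK1), which relay growth factor signals to these factors, were lower by 1.92-fold, 1.54-fold and 1.5-fold (adjusted p = 0.00379, 0.00639 and 0.00858). Other kinase genes of the list ran the other way. RPS6KA5, RPS6KA3 and PRKACB were each 1.39-fold higher with FGF19 than in Mock (limma adjusted p = 0.0145, 0.0138 and 0.0252). The same comparison in the presence of TNFα, FGF19 + TNFα against TNFα, gave 11 higher and 3 lower (32.4% of all probesets), with EP300 2.1-fold, MEF2A 2.04-fold and CREBBP 1.98-fold higher. With TNFα alone 2 were higher than in Mock and 0 lower (1.06% of all probesets), NFKB1, a subunit of NFκB itself, by 1.89-fold (adjusted p = 0.00754) and ELK3 by 1.74-fold (adjusted p = 0.0481). Without either Mock array or either TNFα array 0 passed in that comparison and without any 1 of the others 1 did, and without Mock replicate 1 the count with FGF19 was 7; between FGF19 + TNFα and TNFα it was 7, 5, 9 and 5 without TNFα replicate 1 or 2 or FGF19 + TNFα replicate 1 or 2.

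Other immediate-early genes are switched on by the same signals as the NR4A family, and 41 of 44 listed ones were measured. With TNFα, 16 were higher than in Mock and 0 lower (1.06% of all probesets), with a median log2 difference of 0.52 beside −0.04 over all probesets. The largest rises were those of SPRY4, a feedback inhibitor of RAS signaling (3.91-fold, limma adjusted p = 0.00377), ZFP36, which promotes mRNA decay (3.02-fold, adjusted p = 0.00359), and the nuclear factor gene CSRNP1 (3-fold, adjusted p = 0.00266). With FGF19, 8 were higher and 13 lower than in Mock (32.2% of all probesets). The highest were the AP-1 subunit gene FOSL1 (1.75-fold), TIPARP (1.74-fold) and MYC (1.59-fold), and the rises of NR4A2 and NR4A3 exceeded those of all 41 genes. The lowest were DUSP1, a phosphatase of MAP kinases (2.19-fold lower), IER5 (2.11-fold) and IER2 (2.09-fold). When FGF19 + TNFα was set against TNFα, 3 were higher and 18 lower (32.4% of all probesets), with a median log2 difference of −0.19 beside 0.10 over all probesets. IER5 was 2.91-fold lower, CSRNP1 2.33-fold and DUSP1 2.18-fold (each adjusted p = 0.00348), while ZFP36L1, FOSL1 and MYC were 1.31-fold, 1.29-fold and 1.24-fold higher. NR4A1 lay on the side of the 18 lower genes and NR4A2 and NR4A3 on that of the 3 higher ones.

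CSRNP1, which gave 80.1 and 86.9 for FGF19 + TNFα, 47.7 and 43.6 for FGF19, 209 and 181 for TNFα, and 65.9 and 63.6 for Mock, shared with NR4A1 a level with both agents between those of TNFα and Mock. FGF19 alone also lowered CSRNP1 below Mock, which it did not do for NR4A1 (log2 difference −0.51, limma adjusted p = 0.0158). FOSL1, with 618 and 579 for FGF19 + TNFα, 403 and 378 for FGF19, 492 and 434 for TNFα, and 222 and 224 in Mock, was, like NR4A3, highest with both agents and lowest in Mock. The interaction was below 0 for 33 of the 41 genes (median −0.21), beside 44.2% of all probesets (median 0.03), and 0 of the 41 passed. The counts of these genes depended on single arrays. With TNFα they were 3 and 4 without TNFα replicate 1 or 2, 4 and 3 without Mock replicate 1 or 2, and 8 without either FGF19 + TNFα array. With FGF19 they were 7 and 10 without Mock replicate 1 or 2. Those for FGF19 + TNFα against TNFα were 11 without either TNFα array, and 13 and 10 without FGF19 + TNFα replicate 1 or 2.

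**Figure D4:**
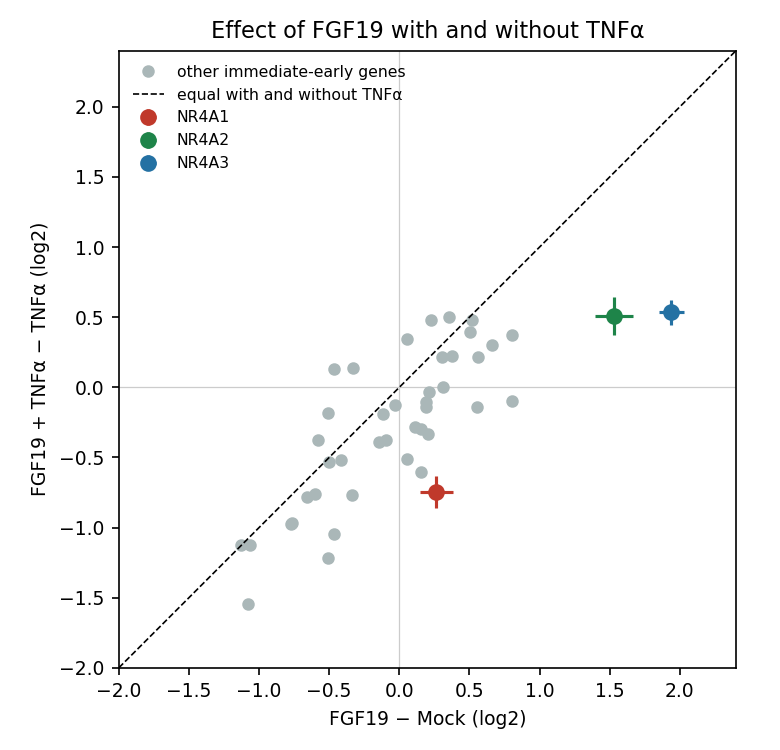
Log2 difference between FGF19 and Mock (horizontal axis) and between FGF19 + TNFα and TNFα (vertical axis) for the NR4A genes, with standard errors as bars, and for 41 other immediate-early genes (grey); the dashed line marks equal effects. NR4A2 and NR4A3 lie farthest right, below the line at 0.51 and 0.54, and NR4A1 lies below the line at −0.75.

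Among the other nuclear receptors a single gene passed with TNFα, and those that passed with FGF19 ran in both directions. Of 45 listed, 36 had a probeset with 1 symbol. With TNFα only the vitamin D receptor gene VDR was higher than in Mock, by 2.48-fold (limma adjusted p = 0.00851, n = 2 arrays per group), and 0 were lower (1.06% of all probesets). VDR read 125 and 108 in FGF19 + TNFα, 60.2 and 70 in FGF19, 139 and 142 in TNFα, and 53.4 and 59.9 in Mock, the same order of groups as for NR4A1, and its call was lost without either Mock array or either TNFα array. With FGF19, 8 receptors were higher than in Mock and 4 lower, 33.3% beside 32.2% of all probesets. NR1D2 (REV-ERBβ, a receptor of the circadian clock) was 1.73-fold higher, the glucocorticoid receptor gene NR3C1 1.55-fold and RORA 1.45-fold, whereas RXRB was 1.72-fold, ESRRA 1.59-fold and RARG 1.43-fold lower (adjusted p = 0.00361 to 0.0353). With TNFα present, in FGF19 + TNFα against TNFα, 8 were higher and 4 lower (32.4% of all probesets), among them NR5A2 1.66-fold higher and ESRRA, an orphan receptor of energy metabolism, 2.12-fold lower. Without Mock replicate 1 or 2 the count of 12 with FGF19 was 3 and 4, and without either FGF19 array it was 7. The second count of 12 was 5, 4, 6 and 3 without TNFα replicate 1 or 2 or FGF19 + TNFα replicate 1 or 2.

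Transcripts of proteins that bind or modify NR4A receptors formed a list of 18, of which 14 were measured, and RXRA and RXRB, which are also counted among the receptors above, are the RXR partners of NR4A1 and NR4A2. With FGF19, 5 were higher and 4 lower than in Mock (32.2% of all probesets), among them the coactivator gene NCOA1 (1.99-fold higher), RCOR1, a part of the CoREST corepressor that NR4A2 recruits (1.65-fold higher), AKT1, a kinase that phosphorylates NR4A1 (2.14-fold lower), and STK11, which encodes the kinase LKB1 (2.09-fold lower; limma adjusted p = 0.00276 to 0.00868). RXRB stood at 148 and 145 on FGF19 + TNFα arrays, 129 and 169 on FGF19 arrays, 241 and 201 on TNFα arrays, and 225 and 286 on Mock arrays, so that all arrays given FGF19 lay below all others. RXRA fell by 1.39-fold when FGF19 was added to TNFα (limma adjusted p = 0.0238). That comparison also gave 5 higher and 4 lower (32.4% of all probesets), and with TNFα alone 0 of the 14 passed against Mock. Without Mock replicate 2 the count with FGF19 was 4, and between FGF19 + TNFα and TNFα it was 4 and 3 without TNFα replicate 1 or FGF19 + TNFα replicate 2.

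Genes known from other tissues as NR4A targets were mostly not called at these early times. Of 16 listed, 14 were measured, and with TNFα 0 passed against Mock (1.06% of all probesets). With FGF19, 0 were higher and 2 lower than in Mock (32.2% of all probesets), the enolase gene ENO3 by 1.8-fold (limma adjusted p = 0.0239) and FBP1, an enzyme of gluconeogenesis, by 1.5-fold (adjusted p = 0.0204). In FGF19 + TNFα, G6PC1, the glucose-6-phosphatase gene, was 1.54-fold and the steroid hydroxylase gene CYP17A1 1.46-fold higher than in TNFα, and ENO3 was 1.8-fold lower (32.4% of all probesets). G6PC1 was dim: it read 23.5 and 26.1 on the TNFα arrays, below their 20th percentiles of 30.7 and 31.2. That percentile was itself higher on the arrays given FGF19. HSD3B2 and VIP, which were not called, lay below it on every array. The count of 2 with FGF19 was 0 without either Mock array or FGF19 replicate 1, and the count of 3 was 0 and 1 without TNFα replicate 1 or FGF19 + TNFα replicate 2.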

How the data were processed

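The authors deposited linear signal intensity for 33297 probesets on 8 arrays, made per the labels with Affymetrix Expression Console and PLIER. Neither software versions nor the normalization were found (not given in the sources used here), and precision is limited by the number of arrays. Of all values, 240 were 0 and were set to the smallest positive signal, 0.01, before log2. Groups were compared with limma 3.58.1 in R 4.3.3, without further normalization. Platform symbols were updated through Entrez identifiers for 19429 of the 19460 probesets with 1 symbol; each list gene was represented by its brightest probeset. The members and lists were chosen with earlier results of these data known. Named were all members, up to 3 called genes per list, comparison and direction by size, and the 5 probesets most like each member. Steps were tested on simulated data. The settings varied were the normalization (quantile or cyclic loess), an offset of 16 before log2, a filter on the dimmest 20% of probesets, the variance prior (none, or trended and robust), the groups fitted, a replicate block, the arrays included, and the threshold of an F test over the 4 groups. Figures were drawn with matplotlib 3.10.9.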

Additional observations from a re-analysis of the deposited data

Results flagged for a closer look

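The members and the called list genes of largest difference were checked, 46 probesets in all. Markers and the probesets named for their likeness to a member were not. Of the 46, 5 had an effect of FGF19 that ran one way on every array with TNFα and the other way on every array without it. NR4A1 was one of them, with an interaction of −1.01. Its log2 difference was −0.75 between FGF19 + TNFα and TNFα. Between FGF19 and Mock it was 0.26, with an interval of −0.02 to 0.55 that includes 0. The others were VDR (−0.27 with TNFα and 0.20 without it, interaction −0.47, limma adjusted p = 0.96), SPRY4 (−0.14 and 0.56, interaction −0.69, adjusted p = 0.951), TIPARP (−0.10 and 0.80, interaction −0.90, adjusted p = 0.469) and NFKB1 (−0.11 and 0.05, interaction −0.17, adjusted p = 0.982). The interaction itself did not pass for any of the 5. The share of all probesets with such opposite effects was not counted, so nothing is read from the count of 5. Groups without overlap were common: FGF19 + TNFα lay above TNFα for 42.4% of probesets and below it for 27.6%, and FGF19 lay above Mock for 39.1%.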

How the results depend on the processing

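Under the alternatives, all 285 values of the 18 member differences and interactions kept their sign, while 23 lost and 4 gained a call. Over these, the interaction of NR4A1 ranged over −1.13 to −0.89, of NR4A2 over −1.21 to −0.84 and of NR4A3 over −1.47 to −1.21. Quantile and cyclic loess normalization changed no call of a member and no count by over 1.5 times. The cause was not tested for the changes that follow.

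With a trended and robust prior the NR4A3 interaction of −1.40 passed, over all alternatives the only such call. Nothing is read from it, since the family was chosen by these values. That prior called 4 probesets and 1 member for the interaction. It called 632 probesets and 2 other nuclear receptors with TNFα against Mock, and 232 probesets and 2 members between FGF19 + TNFα and FGF19. In that last comparison, in which 94 probesets and 1 member were called, 16 added before log2 gave 180 probesets and 2 members, leaving out the dimmest probesets 173 and 2, no moderation 38 and 0, and a fit of only the groups compared 0 and 0. For TNFα against Mock, with 354 probesets, leaving out the dimmest gave 562 and 2 other nuclear receptors, no moderation 193, 9 immediate-early genes and 0 other nuclear receptors, and only the groups compared 103 probesets, 4 immediate-early genes, 0 regulators and 0 other nuclear receptors. For FGF19 against Mock, with 10731 probesets, only the groups compared gave 7089 probesets, 11 immediate-early genes, 9 regulators, 3 other nuclear receptors and 1 NR4A target, and no moderation 1 NR4A target. The F test over the 4 groups called 11621 probesets at 0.05 and 6966 at 0.015.

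Replicate numbers were not taken as pairs: the deviations of same-numbered arrays correlated at −0.02 to 0.195 between groups. With the number as a block, 58 probesets and 0 members passed between FGF19 + TNFα and FGF19, 5 NR4A targets between FGF19 + TNFα and TNFα, and 1 regulator with TNFα. It changed no other call of a member and no other count by over 1.5 times.

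When 1 array was left out, a lone array was assumed to vary like the other groups. Members called numbered 0 between FGF19 + TNFα and FGF19 and 1 to 3 between FGF19 + TNFα and TNFα. All probesets called numbered 90 to 284 with TNFα, 5755 to 9817 with FGF19, 5643 to 11995 with FGF19 + TNFα (each against Mock), 4480 to 11663 between FGF19 + TNFα and TNFα, 6 to 50 between FGF19 + TNFα and FGF19, 0 to 11 for the interaction and 7611 to 11786 by the F test. With TNFα against Mock the counts were 3 to 14 immediate-early genes, 0 to 1 regulators and 0 to 1 other nuclear receptors. With FGF19 against Mock they were 7 to 17 immediate-early genes, 7 to 14 regulators, 3 to 11 other nuclear receptors, 4 to 10 partners and 0 to 3 NR4A targets. Between FGF19 + TNFα and TNFα they were 10 to 22, 5 to 14, 3 to 14, 3 to 10 and 0 to 4 in the same order.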

Other observations

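Receptors of the ligands were measured on the same arrays and are given by level. FGFR4, the receptor that FGF19 binds, read 123 and 115 on FGF19 + TNFα arrays, 130 and 126 on FGF19 arrays, 151 and 166 on TNFα arrays, and 168 and 151 on Mock arrays, so that all arrays given FGF19 lay below all others. KLB, which encodes the coreceptor β-Klotho, lay between 83.4 and 145 over all arrays. TNFRSF1A, the main TNF receptor of epithelial cells, lay between 844 and 1088. TNFRSF1B, another TNF receptor, read 141 and 118 with FGF19 + TNFα and 116 and 136 with FGF19. It read 174 and 201 with TNFα alone, above all other arrays, and 132 and 120 in Mock.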
